A study of Mus musculus with 16 samples.

Results

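Epididymal white fat (eWAT) was compared with inguinal white fat (iWAT) across every genotype and treatment of the study. All 16 libraries entered the comparison, 8 from eWAT and 8 from iWAT, each depot taken from the same 4 combinations of genotype and treatment. The 4 eWAT groups of 2 libraries were K107R rosiglitazone, WT rosiglitazone, K107R vehicle and WT vehicle, and the 4 iWAT groups carried the same labels, so the depots formed 4 pairs of groups. K107R mice carried on both alleles a PPARg with arginine in place of a lysine that can be sumoylated, and WT mice carried the unmutated receptor. All mice ate chow for 10 weeks. A high-fat diet (60% of calories as fat) followed for 19 weeks. Rosiglitazone, a PPARg agonist, was given by gavage for 1 week at 10 mg/kg in 1% methylcellulose, and vehicle mice received the methylcellulose. The labels give no animal for any library, so it is unknown if the 2 libraries of a group are 2 mice or if both depots of a pair share a mouse. The p-values therefore rest on library-to-library spread alone, part of which may be technical.

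The epididymal pad is a visceral depot that lies in the abdominal cavity, is covered by mesothelium, a thin epithelial lining, and is known in obese mice for its accumulation of macrophages that take up lipid from failing fat cells. The inguinal pad lies under the skin, contains a lymph node, and is known for forming beige fat cells, which burn fat through the uncoupling protein Ucp1. The depots arise from different embryonic regions and keep different sets of patterning transcription factors in the adult. In RNA of whole tissue, fewer cells of a type and less RNA per cell cannot be told apart.

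Levels are FPKM, which scale mapped fragments by transcript length and by the size of the library. Where given, 3 values in a row are the lowest, the median and the highest of the 8 libraries of a depot. Log2 differences are eWAT minus iWAT on the log2(FPKM + 1) scale, which makes differences of genes with low values smaller, and they are given with a moderated standard error (SE). A gene was called at a Benjamini-Hochberg adjusted p under 0.05 in limma. Fabp4, Lpl, Car3 and Scd1, which are listed at 0 in whole groups, and 193 genes high in the eWAT K107R vehicle libraries alone were left out of all counts, which left 13472 genes.

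Fat cell transcripts were abundant in every library: adiponectin, Adipoq, the hormone that marks fat cells, lay between 1068 and 3319.9 FPKM. Transcripts of the epididymis, the duct beside the pad, summed to 3714 and 3368 FPKM over 8 genes in the eWAT K107R vehicle libraries, to at most 6.25 FPKM in the other 6 eWAT libraries and to at most 0.215 FPKM in iWAT. Libraries numbered 2 stood apart from those numbered 1. Their median FPKM was 6.21 to 8.83 in eWAT and 5.36 to 6.32 in iWAT, against 8.95 to 9.61 in eWAT and 9.23 to 9.59 in iWAT for number 1. The cytoskeletal gene Actb, named after its values were seen, ranged between 96.9 and 938 FPKM in eWAT and between 21.7 and 39.5 FPKM in iWAT in number 2 libraries, against 1460 to 2016 FPKM in eWAT and 771 to 874 FPKM in iWAT in number 1 libraries. FPKM carry no read counts, so the depth behind each value is unknown.

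The depots separated on the second principal component, which held 24.6% of the variance: eWAT libraries scored between 10.9 and 54.9 and iWAT libraries between -50.0 and 5.31. The first component held 43.9% of the variance, and on it the iWAT libraries numbered 2 scored between -68.6 and -59.9 and those numbered 1 between 7.85 and 17.9.

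**Figure D1:**
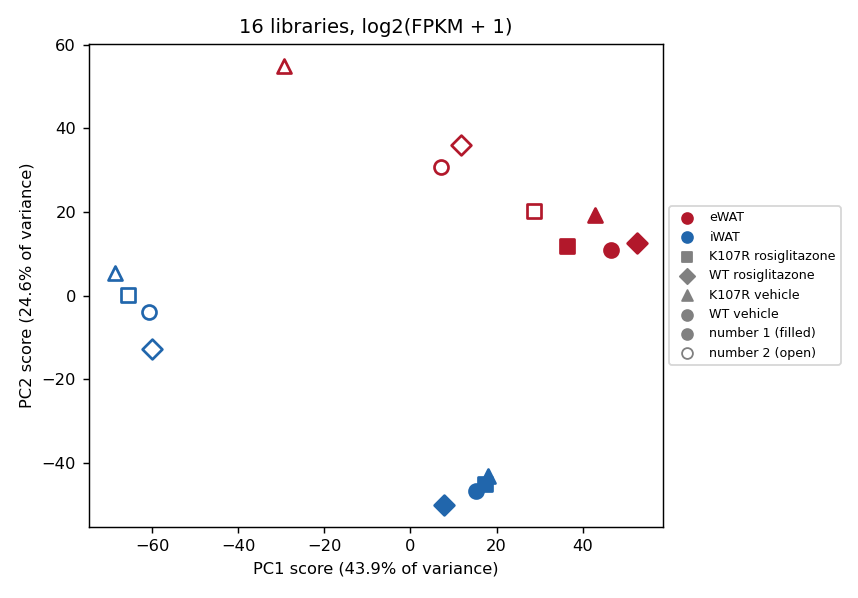
Scores of the 16 libraries on the first 2 principal components of log2(FPKM + 1), in arbitrary units. Red symbols are eWAT and blue symbols iWAT, shapes give genotype and treatment, and filled and open symbols are libraries numbered 1 and 2; the depots do not overlap on PC2, and the open iWAT symbols lie left of the filled ones on PC1.

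Averaged over the 4 pairs, 4241 of the 13472 genes were called (31.5%). Of these, 2527 were higher in eWAT (18.8% of all genes) and 1714 lower (12.7%). With the replicate number as a block, 55.2% of all genes were called, of which 4559 were higher (33.8%) and 2873 lower (21.3%). The share of calls that were higher in eWAT was 59.6% with FPKM as deposited, 47.7% after rescaling each library by its median ratio, 45% within number 1 libraries and 80.6% within number 2 libraries. The median log2 difference of all genes moved with it, from 0.09 as deposited to -0.02 after rescaling, -0.05 within number 1 and 0.24 within number 2. Medians within one number, here and for the lists below, cover the genes that reach 1 FPKM in at least 2 of those 8 libraries, which in number 2 are 13 of 16 T and NK cell genes and 20 of 26 patterning factors, so they need not lie on both sides of the median over all libraries. Small differences are read against those medians below, and of the named genes that could be tested within each number 1, the erythroid enzyme Alas2 (0.03, not called), changed sign between the numbers.

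Fewer genes held in every pair. In the single pairs 1482 genes were called in K107R rosiglitazone (11%; 3609 with the block), 2078 in WT rosiglitazone (15.4%; 4330), 1713 in K107R vehicle (12.7%; 3812) and 1545 in WT vehicle (11.5%; 3445). Higher in eWAT were 1036 genes in K107R rosiglitazone (7.69%), 1162 in WT rosiglitazone (8.63%), 1114 in K107R vehicle (8.27%) and 873 in WT vehicle (6.48%). Lower in eWAT were 446 genes in K107R rosiglitazone (3.31%), 916 in WT rosiglitazone (6.8%), 599 in K107R vehicle (4.45%) and 672 in WT vehicle (4.99%). With 1 sign in all 4 pairs, 864 genes were called (6.41%), of which 633 were higher in eWAT (4.7%; 1337 with the block) and 231 lower (1.71%; 593 with the block). No overlap between the 8 eWAT and the 8 iWAT libraries was found for 1114 genes higher in eWAT (8.27%) and 354 lower (2.63%). Of the genes called in the average, 3952 (29.3% of all genes) had the same sign in each of the 4 pairs. All 4 pairs share no library, and across the 13472 genes their log2 differences correlated at a Pearson r between 0.66 (K107R rosiglitazone with K107R vehicle) and 0.83 (WT rosiglitazone with WT vehicle), a description over genes that share libraries and base levels.

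Mesothelial genes had the highest median difference of the lists. Of the 12 mesothelial markers tested, 11 were higher in eWAT, every one of them in all 4 pairs, and Cldn15 (-0.52), a tight junction protein named after its value was seen, was lower. Of the 14 markers with values, which include 2 of the genes left out, 9 stayed under 1 FPKM in every iWAT library. Such markers could pass the filter of 1 FPKM in 2 libraries only through eWAT. The count of higher markers was thus partly set by the filter. The median log2 difference of the list was 2.43 (2.39 within number 1 and 2.49 within number 2 libraries), beside 0.09 for all genes. Upk3b, a uroplakin of the mesothelial surface (chromosome 5, 136038496 to 136044993, GRCm38), lay at 16.7, 21.9 and 28.3 FPKM in eWAT, against 0.0115, 0.0272 and 0.0444 FPKM in iWAT (log2 difference 4.55 ± 0.08 SE, adjusted p = 3.75e-10). Each eWAT library exceeded each iWAT library by a wide margin, and the iWAT level was near 0. Msln, the surface protein mesothelin (chromosome 17, 25748613 to 25754378), lay at 8.1, 10.9 and 14.2 FPKM in eWAT, against 0.0289, 0.105 and 0.186 FPKM in iWAT (log2 difference 3.41 ± 0.07 SE, adjusted p = 4.92e-10). Upk1b, a further uroplakin (chromosome 16, 38773182 to 38800203), lay at 5.01, 6.82 and 9.02 FPKM in eWAT, against 0, 0.0145 and 0.0649 FPKM in iWAT (log2 difference 2.91 ± 0.05 SE, adjusted p = 3.95e-10). The keratin Krt19 (2.48), the adhesion protein gene Lrrn4 (2.06) and the transcription factor gene Bnc1 (0.92), which the lining is known to express and which were named after their values were seen, had the same direction. The summed level of the 14 markers, with the 2 left-out genes among them, was 121, 149 and 203 FPKM in eWAT. In iWAT it was 52.1, 60.3 and 74.2 FPKM, so the depots did not overlap. The eWAT K107R vehicle libraries, which hold the epididymal transcripts, had the highest sums, 192 and 203 FPKM. The highest other eWAT library was at 167 FPKM.

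Some developmental transcription factors differed strongly, although the medians of both lists of them lay near 0. Of 26 patterning factors other than Hox genes, 5 were higher in eWAT and 7 lower (7 higher and 9 lower with the block; median 0.00, -0.31 within number 1 and 0.44 within number 2 libraries). Over all genes 18.8% were higher and 12.7% lower, so the count of higher factors was near the share of all genes. Wt1, the Wilms tumour factor of mesothelium and of visceral fat progenitors (chromosome 2, 105126529 to 105173614), lay at 4.38, 6.1 and 8.65 FPKM in eWAT, against 0, 0.00981 and 0.0316 FPKM in iWAT (log2 difference 2.81 ± 0.09 SE, adjusted p = 1.32e-08). Tcf21, a factor of visceral mesenchyme (chromosome 10, 22817263 to 22820143), lay at 3.85, 5.04 and 7.48 FPKM in eWAT, against 0, 0 and 0.0268 FPKM in iWAT (log2 difference 2.62 ± 0.06 SE, adjusted p = 9.52e-10). Both were thus present in all 8 eWAT libraries and close to absent from iWAT. Wt1 and Tcf21 therefore passed the filter only through eWAT, and their calls were partly set by it. The nuclear receptor Nr2f1 (0.94, adjusted p = 0.000473), Gata6 of coelomic mesoderm (0.85, adjusted p = 0.0119) and the forkhead factor Foxc2 (0.56, adjusted p = 0.00166) were higher by smaller amounts and were not called in every pair. Foxc2 reached 1 FPKM in 2 libraries alone, both of eWAT, and passed the filter only through them.

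Other patterning factors were lower in eWAT. Tbx15, a T-box factor of subcutaneous and brown fat (chromosome 3, 99240348 to 99354260), lay at 0.00678, 0.0352 and 0.0682 FPKM in eWAT, against 1.5, 2.82 and 5.16 FPKM in iWAT (log2 difference -1.89 ± 0.25 SE, adjusted p = 0.000196), and it was called in all 4 pairs. Shox2, a homeobox factor of limb mesenchyme (chromosome 3, 66971723 to 66981771), lay at 0.152, 0.32 and 0.478 FPKM in eWAT, against 2.3, 6.05 and 13.6 FPKM in iWAT (log2 difference -2.36 ± 0.37 SE, adjusted p = 0.000555). Lhx8, a LIM homeobox factor (chromosome 3, 154306288 to 154330560), lay at 0.00557, 0.0335 and 0.0744 FPKM in eWAT, against 0.718, 2.37 and 8.55 FPKM in iWAT (log2 difference -1.74 ± 0.28 SE, adjusted p = 0.00079). In each of these genes the lowest iWAT library exceeded the highest eWAT library, and the iWAT libraries numbered 2 lay below those numbered 1. Tbx15, Shox2 and Lhx8 stayed under 1 FPKM in every eWAT library and passed the filter only through iWAT, so their calls were partly set by it. The zinc finger factor Osr2 (-1.13, adjusted p = 0.00025) and the Iroquois factor Irx2 (-0.73, adjusted p = 0.000199) were lower in eWAT too, and Irx2 passed the filter through 2 iWAT libraries alone. The mesenchymal factor Meox2 (-0.79, adjusted p = 0.0293) lost its call when any of 9 single libraries was left out, with an adjusted p of up to 0.069. Irx1 was lower in 3 pairs and higher in K107R vehicle, where its levels were 2.95 and 3.33 FPKM in eWAT, against 1.58 and 0.769 FPKM in iWAT.

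Among the 27 Hox genes tested, which set position along the body axis, 3 were lower in eWAT, 1 was higher and 23 were not called (5 higher and 6 lower with the block; median -0.0008, -0.17 within number 1 and 0.28 within number 2 libraries). Of all genes 12.7% were lower and 18.8% higher, and the Hox counts without the block did not exceed these shares. Hoxc10 (chromosome 15, 102966796 to 102971898) lay at 0.0771, 0.167 and 0.413 FPKM in eWAT, against 3.86, 6.38 and 10.1 FPKM in iWAT (log2 difference -2.56 ± 0.14 SE, adjusted p = 4.04e-07). Hoxa9 (chromosome 6, 52223097 to 52227370) lay at 0.078, 0.161 and 0.595 FPKM in eWAT, against 2.13, 4.88 and 9.12 FPKM in iWAT (log2 difference -2.23 ± 0.19 SE, adjusted p = 6.9e-06). Its neighbour Hoxa10 (chromosome 6, 52231197 to 52240854) lay at 0, 0.0838 and 0.299 FPKM in eWAT, against 1.65, 3.76 and 8.34 FPKM in iWAT (log2 difference -2.18 ± 0.33 SE, adjusted p = 0.00049). These 3 genes lie toward the posterior ends of their clusters, and in each of them the depots did not overlap. All 3 stayed under 1 FPKM in every eWAT library and passed the filter only through iWAT, so their calls were partly set by it. Hoxc9, which sits beside Hoxc10 and was named after its values were seen, was not called (-0.34, adjusted p = 0.679). Hoxd3 (0.51, adjusted p = 0.0191) had its largest difference in K107R vehicle (1.21), and lost its call without the K107R vehicle libraries (0.28) and without number 1 of eWAT WT vehicle (0.47).

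**Figure D2:**
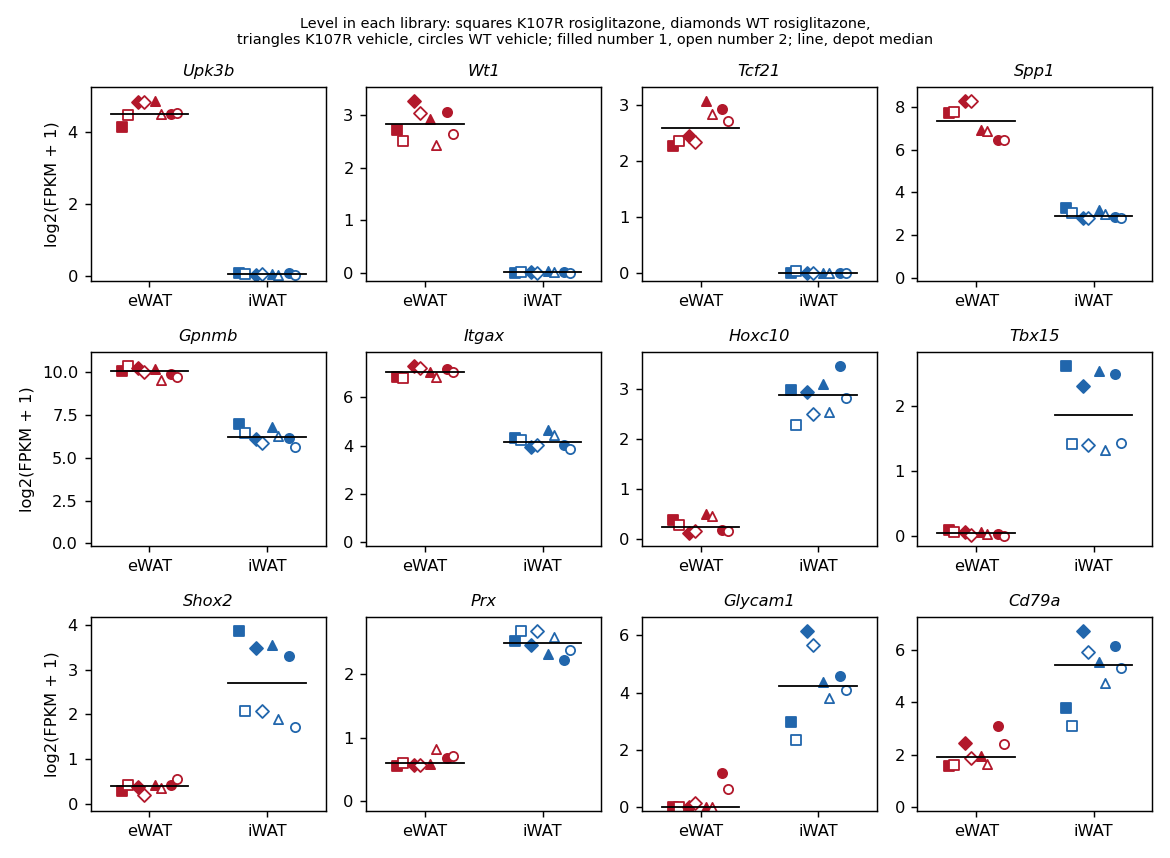
Level of 12 genes in each of the 16 libraries, as log2(FPKM + 1), with eWAT in red at the left of each panel and iWAT in blue at the right; shapes give genotype and treatment, filled symbols number 1, open symbols number 2, and the line the depot median. In every panel all eWAT symbols lie on 1 side of all iWAT symbols, with Upk3b, Wt1, Tcf21, Spp1, Gpnmb and Itgax higher in eWAT and the other 6 genes lower.

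Macrophage transcripts were far higher in eWAT. Of the 15 genes of lysosomes and lipid-handling macrophages, 13 were higher and none was lower (14 higher and 0 lower with the block), 10 of them in all 4 pairs. The median log2 difference of the list was 2.22 (2.07 within number 1 and 2.27 within number 2 libraries). The largest was Spp1, osteopontin, a secreted phosphoprotein (chromosome 5, 104435111 to 104441053), at 86, 168 and 309 FPKM in eWAT, against 5.91, 6.57 and 8.74 FPKM in iWAT (log2 difference 4.38 ± 0.06 SE, adjusted p = 4.71e-11). Mmp12, the macrophage elastase (chromosome 9, 7344397 to 7360461), lay at 247, 435 and 529 FPKM in eWAT, against 12.1, 21 and 46.9 FPKM in iWAT (log2 difference 4.02 ± 0.26 SE, adjusted p = 1.03e-06). Gpnmb, a lysosomal membrane glycoprotein (chromosome 6, 49036518 to 49058182), lay at 736, 1052 and 1306 FPKM in eWAT, against 47.6, 73.3 and 122 FPKM in iWAT (log2 difference 3.73 ± 0.14 SE, adjusted p = 2.83e-08). Atp6v0d2, a subunit of the proton pump that acidifies lysosomes, lay at 64.7, 157 and 256 FPKM in eWAT, against 8.07, 16.1 and 32.8 FPKM in iWAT (log2 difference 3.06 ± 0.36 SE, adjusted p = 7.55e-05). The depots did not overlap in any of these 4 genes. Trem2, the lipid receptor of macrophages, named after its values were seen, lay at 296, 379.8 and 423 FPKM in eWAT, against 29.1, 47.8 and 56.9 FPKM in iWAT (log2 difference 3.02 ± 0.06 SE, adjusted p = 4.92e-10). Apoe (0.25) and Fabp5 (0.21), carriers of lipid that other cells make as well, were named after their values were seen and were not called, though Apoe was called higher with the block (adjusted p = 0.00659).

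Of the 15 genes, 12 matched the RefSeq promoter table (GRCm38.p6), from which the 250 bases before the start of the gene were read. GAGGAA, the core letters known for binding of PU.1, the master factor of macrophages, stood on either strand in the windows of 7 (Apoe, Cd63, Ctsk, Lipa, Mmp12, Spp1 and Trem2), and in 23.1% of all 27025 promoters. The E-box letters CACGTG stood in 1 of the 12 windows against 6.05% of all promoters, the letters CATGTG in 1 against 12.2%, and the AP-1 letters TGACTCA in 0 against 4.43%. Overlaps between matches of different motifs were not counted. The motif shown was chosen after these counts were seen, and a match is a description of letters, not a binding site. PU.1 itself, the product of Spi1, named after its values were seen, lay at 146, 158 and 199 FPKM in eWAT, against 31.4, 39.6 and 45.2 FPKM in iWAT (log2 difference 2.01 ± 0.09 SE, adjusted p = 5.55e-08). The 3 windows shown were picked from the 7 that hold GAGGAA. Gpnmb and Atp6v0d2, which differed more between depots than Trem2, were not among the 7. The windows of Trem2, Spp1 and Mmp12 are printed on the + strand (Trem2 at chr17:48346151-48346400, Spp1 at chr5:104434861-104435110 and Mmp12 at chr9:7344147-7344396), 5′ to 3′, with GAGGAA or its reverse complement TTCCTC in capitals.
Trem2: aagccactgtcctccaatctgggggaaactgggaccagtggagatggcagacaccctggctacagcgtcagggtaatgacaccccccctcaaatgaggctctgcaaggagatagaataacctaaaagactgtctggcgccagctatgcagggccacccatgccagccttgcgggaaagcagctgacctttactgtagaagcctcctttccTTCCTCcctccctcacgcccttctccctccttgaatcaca
Spp1: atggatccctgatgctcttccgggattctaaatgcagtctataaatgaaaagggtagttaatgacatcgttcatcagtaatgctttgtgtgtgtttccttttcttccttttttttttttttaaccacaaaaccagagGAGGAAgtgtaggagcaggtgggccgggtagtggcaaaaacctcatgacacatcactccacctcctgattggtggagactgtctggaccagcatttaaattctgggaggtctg
Mmp12: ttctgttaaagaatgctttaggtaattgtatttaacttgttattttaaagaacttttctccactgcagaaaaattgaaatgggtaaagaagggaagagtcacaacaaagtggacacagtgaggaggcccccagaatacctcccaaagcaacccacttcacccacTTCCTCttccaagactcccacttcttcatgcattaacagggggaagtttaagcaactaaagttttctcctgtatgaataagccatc

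General macrophage markers were mostly higher as well. Of 16, 12 were higher in eWAT and 3 lower (12 higher and 4 lower with the block; median 0.99, 1.06 within number 1 and 0.96 within number 2 libraries). Itgax, the integrin CD11c of lipid-laden macrophages and dendritic cells (chromosome 7, 128129526 to 128150657), lay at 110.4, 131 and 155 FPKM in eWAT, against 13.6, 16.6 and 24 FPKM in iWAT (log2 difference 2.84 ± 0.06 SE, adjusted p = 7.67e-10). Cd68, a lysosomal glycoprotein of macrophages, lay at 421, 635 and 861 FPKM in eWAT, against 68.6, 108 and 165 FPKM in iWAT (log2 difference 2.45 ± 0.22 SE, adjusted p = 1.3e-05). Adgre1, the F4/80 antigen, lay at 108, 158 and 201 FPKM in eWAT, against 25.5, 30.1 and 40.7 FPKM in iWAT (log2 difference 2.26 ± 0.08 SE, adjusted p = 2.09e-08). All 3 were called in each pair. The lower ones were Cd163 (-0.91, adjusted p = 4.92e-05), the haemoglobin scavenger receptor of resident macrophages, Retnla (-1.50, adjusted p = 5.08e-07), a secreted protein of alternatively activated macrophages, and Timd4 (-1.77, adjusted p = 0.000162), a receptor for dying cells on resident macrophages, all named after their values were seen. Retnla lay at 134, 285 and 394 FPKM in eWAT, against 547, 737 and 1014 FPKM in iWAT, so its depots did not overlap either, and it was called in all 4 pairs. Further receptors of myeloid cells were among the genes with the largest differences, in opposite directions. Clec4d, a lectin receptor, lay at 16.8, 32.2 and 43.7 FPKM in eWAT, against 0.926, 1.59 and 3.74 FPKM in iWAT (log2 difference 3.54 ± 0.20 SE, adjusted p = 4.96e-07). Marco, a scavenger receptor, lay at 1.63, 1.69 and 2.41 FPKM in eWAT, against 6.68, 16.4 and 26.4 FPKM in iWAT (log2 difference -2.48 ± 0.08 SE, adjusted p = 9.94e-09).

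Proliferation genes were higher in eWAT as well: 17 of 18 cell cycle genes were called higher, none lower and Rrm2 (1.14), named after its value was seen, alone was not called (18 higher and 0 lower with the block). The median log2 difference of the list was 1.01 (0.89 within number 1 and 1.11 within number 2 libraries). Pcna, the sliding clamp of DNA replication, lay at 76.4, 112 and 139 FPKM in eWAT, against 34.9, 44.2 and 57.9 FPKM in iWAT (log2 difference 1.30 ± 0.15 SE, adjusted p = 8.57e-05). Ccnb2, a mitotic cyclin, lay at 7.88, 9.44 and 12.5 FPKM in eWAT, against 1.35, 3.59 and 4.32 FPKM in iWAT (log2 difference 1.41 ± 0.11 SE, adjusted p = 3.24e-06). Tk1, the thymidine kinase, lay at 10.5, 12.9 and 15.8 FPKM in eWAT, against 2.96, 5.55 and 6.58 FPKM in iWAT (log2 difference 1.21 ± 0.07 SE, adjusted p = 5.24e-07). Birc5, survivin, lay at 5.44, 10.6 and 14.7 FPKM in eWAT, against 1.18, 2.84 and 5 FPKM in iWAT (log2 difference 1.55 ± 0.25 SE, adjusted p = 0.000685). The first 3 were called in every pair, and none of the 4 overlapped between depots. Macrophage markers moved with this list, and their part in it was not tested.

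Complement and acute phase genes were higher in 13 of 21 cases and lower in none (18 higher and 2 lower with the block; median 0.58, 0.52 within number 1 and 0.64 within number 2 libraries). Saa3, the serum amyloid A of fat and macrophages, lay at 15.3, 54.9 and 81.6 FPKM in eWAT, against 1.19, 8.08 and 11.6 FPKM in iWAT (log2 difference 2.74 ± 0.10 SE, adjusted p = 2.52e-08). Lcn2, a siderophore-binding lipocalin, lay at 7.1, 12.3 and 30.7 FPKM in eWAT, against 1.26, 2.27 and 3.39 FPKM in iWAT (log2 difference 2.16 ± 0.09 SE, adjusted p = 3.75e-08). C3, the central complement protein, lay at 377, 528 and 651 FPKM in eWAT, against 119, 176 and 212 FPKM in iWAT (log2 difference 1.58 ± 0.06 SE, adjusted p = 3.75e-08). All 3 exceeded iWAT in 8 of 8 matched differences. Orm2, an acute phase glycoprotein with near-identical family members that may share its reads, lay at 0.65, 3.04 and 11.2 FPKM in eWAT, against 0.218, 0.41 and 1.18 FPKM in iWAT. Of 18 inflammatory mediators, 8 were higher and 3 lower (10 higher and 5 lower with the block), beside 18.8% and 12.7% of all genes. The monocyte chemokine Ccl2 lay at 17.2, 24.9 and 57.5 FPKM in eWAT, against 3.3, 8.21 and 20.6 FPKM in iWAT (log2 difference 1.70 ± 0.19 SE, adjusted p = 5.92e-05). The related Ccl3 lay at 2.48, 6.86 and 10.6 FPKM in eWAT, against 0.312, 0.89 and 2.4 FPKM in iWAT (log2 difference 1.87 ± 0.34 SE, adjusted p = 0.00163). The cytokine Tgfb1 lay at 86.8, 96.8 and 117 FPKM in eWAT, against 28.8, 42.6 and 51.6 FPKM in iWAT (log2 difference 1.31 ± 0.15 SE, adjusted p = 6.01e-05). Ccl5, a chemokine of T cells, went the other way, at 15.3, 26 and 39.2 FPKM in eWAT, against 31, 89.6 and 163 FPKM in iWAT (log2 difference -1.59 ± 0.13 SE, adjusted p = 5.38e-06).

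Mast cell genes, those of granule proteases and the IgE receptor, were higher in 8 of 10 cases and lower in none (8 higher and 0 lower with the block; median 1.22, 1.34 within number 1 and 1.46 within number 2 libraries). Cpa3, the mast cell carboxypeptidase, lay at 10.1, 32.7 and 79.5 FPKM in eWAT, against 3.73, 10.6 and 16.1 FPKM in iWAT (log2 difference 1.67 ± 0.32 SE, adjusted p = 0.00211). The tryptase Tpsb2 lay at 32, 53.1 and 107.1 FPKM in eWAT, against 14.2, 18.3 and 22.5 FPKM in iWAT (log2 difference 1.55 ± 0.13 SE, adjusted p = 6.15e-06). The summed level of the list was 124, 196 and 449 FPKM in eWAT, against 66.2, 89.5 and 101 FPKM in iWAT, with the highest eWAT values, 449 and 428 FPKM, in WT rosiglitazone. Of 9 neutrophil genes 5 were called higher and none lower (5 higher and 0 lower with the block). The count rested on few libraries: it was 1 of 6 tested without number 1 of eWAT K107R rosiglitazone, 3 of 6 without its number 2, and 3 of 9 without number 1 of any other eWAT group or number 2 of any iWAT group. Within number 1 libraries 2 of 4 were higher, and within number 2 libraries 2 of 6. The median log2 difference of the list was 1.11 in K107R rosiglitazone, 0.30 in WT rosiglitazone, -0.07 in K107R vehicle and -0.07 in WT vehicle. Ngp and Mpo, granule proteins and the second of them named after its values were seen, reached 1 FPKM in no library other than the 2 of eWAT K107R rosiglitazone, and Ltf in 3 eWAT K107R libraries alone. These 3 genes passed the filter only through groups in which they were high, so their calls support nothing. Of the other calls, those of S100a8 (0.76) and of the receptor Csf3r (0.52) were each lost on leaving out number 1 of any eWAT group or number 2 of any iWAT group (adjusted p up to 0.081 for S100a8 and 0.074 for Csf3r).

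Matrix genes were higher in 12 of 26 cases and lower in 1 (16 higher and 3 lower with the block; median 0.48, 0.33 within number 1 and 0.52 within number 2 libraries). The proteoglycan Lum, lumican, which binds collagen fibrils, lay at 100, 169 and 234 FPKM in eWAT, against 25.9, 46.7 and 110.1 FPKM in iWAT (log2 difference 1.68 ± 0.27 SE, adjusted p = 0.000723). The related Dcn, decorin, lay at 582, 926 and 1283 FPKM in eWAT, against 259, 386 and 642 FPKM in iWAT (log2 difference 1.10 ± 0.19 SE, adjusted p = 0.00112). Fbn1, the microfibril protein fibrillin, lay at 32.2, 46.4 and 60.5 FPKM in eWAT, against 14.5, 22.3 and 34.8 FPKM in iWAT (log2 difference 1.02 ± 0.06 SE, adjusted p = 8.58e-07) and was the one member called in all 4 pairs. The basement membrane collagens Col4a1 (0.09) and Col4a2 (-0.05), named after their values were seen, were not called. Outside the list, Col6a5, a chain of collagen VI (chromosome 9, 105856070 to 105962463), had one of the largest differences of all genes, at 16.7, 32.7 and 36.3 FPKM in eWAT, against 0.266, 0.467 and 0.662 FPKM in iWAT (log2 difference 4.31 ± 0.10 SE, adjusted p = 1.59e-09). Of 16 fibroblast and progenitor genes 6 were higher and 3 lower (8 higher and 4 lower with the block), beside 18.8% and 12.7% of all genes. The progenitor receptor Pdgfra lay at 14.4, 22.5 and 28.6 FPKM in eWAT, against 7.3, 11.4 and 19.6 FPKM in iWAT (log2 difference 0.88 ± 0.21 SE, adjusted p = 0.00842). The dermal matrix protein Dpt, dermatopontin, lay at 167, 277 and 339.6 FPKM in eWAT, against 317, 526 and 711 FPKM in iWAT (log2 difference -0.90 ± 0.10 SE, adjusted p = 5.85e-05).

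Signalling genes split between the depots. Of 28 Wnt, BMP and hedgehog genes 7 were higher in eWAT and 7 lower (9 higher and 10 lower with the block; median -0.09, -0.21 within number 1 and 0.12 within number 2 libraries). The shares over all genes were 18.8% higher and 12.7% lower. Rspo1, an amplifier of Wnt signals that is also a mesothelial marker, lay at 7.48, 9.2 and 11 FPKM in eWAT, against 0.494, 1.02 and 1.52 FPKM in iWAT (log2 difference 2.38 ± 0.08 SE, adjusted p = 1.17e-08). Sfrp1, a secreted Wnt antagonist, lay at 3.75, 5.01 and 7.83 FPKM in eWAT, against 0.709, 1.15 and 1.83 FPKM in iWAT (log2 difference 1.56 ± 0.18 SE, adjusted p = 7.09e-05). Bmper, a binder of BMP ligands, lay at 14.9, 22.1 and 26.8 FPKM in eWAT, against 6.1, 8.86 and 13.7 FPKM in iWAT (log2 difference 1.17 ± 0.14 SE, adjusted p = 0.000113). The ligand Wnt10b, known to hold back fat cell formation, lay at 0.386, 0.556 and 0.878 FPKM in eWAT, against 1.64, 2.19 and 2.45 FPKM in iWAT (log2 difference -0.996 ± 0.05 SE, adjusted p = 1.35e-07). Each of these genes differed without overlap between the depots.

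Other genes with the largest differences higher in eWAT belonged to none of the lists. Npy, the neuropeptide Y, lay at 5.17, 12.4 and 99.4 FPKM in eWAT, against 0.0915, 0.862 and 1.64 FPKM in iWAT (log2 difference 3.32 ± 0.17 SE, adjusted p = 2.32e-07). Its levels in K107R vehicle, the highest of eWAT, were 99.4 and 53.6 FPKM in eWAT, against 1.3 and 1.15 FPKM in iWAT. These eWAT libraries hold the epididymal transcripts, whose part in the Npy level was not tested. Slpi, a secreted inhibitor of leukocyte proteases, lay at 30.4, 50.6 and 74.2 FPKM in eWAT, against 1.34, 4.18 and 7.57 FPKM in iWAT (log2 difference 3.38 ± 0.09 SE, adjusted p = 4.41e-09). Serpinb9b, an intracellular protease inhibitor of a family with near-identical copies, lay at 11.5, 22.1 and 47.9 FPKM in eWAT, against 0.239, 0.566 and 1.39 FPKM in iWAT (log2 difference 3.86 ± 0.24 SE, adjusted p = 7.8e-07). Rnf128, a ubiquitin ligase, lay at 32.5, 61.3 and 78.7 FPKM in eWAT, against 2.71, 4.63 and 8.49 FPKM in iWAT (log2 difference 3.37 ± 0.22 SE, adjusted p = 1.07e-06). Vsig8 lay at 47.6, 57.3 and 73.6 FPKM in eWAT, against 3.32, 5.29 and 10.6 FPKM in iWAT (log2 difference 3.14 ± 0.07 SE, adjusted p = 7.67e-10). All of them were called in each of the 4 pairs.

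Genes of the fat cell itself were lower in eWAT. Of 25 core genes 17 were lower and none was higher (2 higher and 19 lower with the block), and the median log2 difference of the list was -0.56 (-0.65 within number 1 and -0.49 within number 2 libraries). Plin4, a coat protein of lipid droplets (chromosome 17, 56100587 to 56109948), lay at 279.9, 350.3 and 403 FPKM in eWAT, against 722, 864 and 1241 FPKM in iWAT (log2 difference -1.37 ± 0.15 SE, adjusted p = 4.05e-05). Agpat2, an acyltransferase of triglyceride synthesis, lay at 201, 308 and 452 FPKM in eWAT, against 412, 613 and 982 FPKM in iWAT (log2 difference -1.02 ± 0.07 SE, adjusted p = 2.58e-06). G0s2, an inhibitor of the triglyceride lipase, lay at 273, 441 and 643 FPKM in eWAT, against 521, 777 and 1527 FPKM in iWAT (log2 difference -0.96 ± 0.24 SE, adjusted p = 0.0105). Pparg, the master regulator of fat cells, named after its values were seen, was not called (log2 difference -0.37, adjusted p = 0.318) but was lower with the block (adjusted p = 0.0148), and lay at 55.5, 81.3 and 97.2 FPKM in eWAT, against 63.9, 106 and 163 FPKM in iWAT. The depots overlapped in Pparg and did not in Plin4. Macrophage transcripts were higher in the same eWAT libraries, with the summed level of the 16 markers at 4344, 4923 and 5950.2 FPKM in eWAT, against 1839, 2390.2 and 2541 FPKM in iWAT, and their part in the lower fat cell levels was not tested.

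More secreted factors of fat were lower than higher in eWAT, beside 18.8% of all genes higher and 12.7% lower. Of 22 adipokines 3 were higher and 10 lower (4 higher and 15 lower with the block; median -0.38, -0.42 within number 1 and -0.26 within number 2 libraries). Agt, angiotensinogen, the precursor of angiotensin (chromosome 8, 124556587 to 124569706), lay at 11.7, 22.6 and 40.6 FPKM in eWAT, against 1.76, 2.71 and 5.43 FPKM in iWAT (log2 difference 2.56 ± 0.08 SE, adjusted p = 7.33e-09). Metrnl, meteorin-like, a secreted protein of fat and macrophages, lay at 19.9, 37.1 and 43.9 FPKM in eWAT, against 4.09, 6.49 and 13.3 FPKM in iWAT (log2 difference 2.15 ± 0.28 SE, adjusted p = 0.000186). Gpx3, the plasma glutathione peroxidase, lay at 139, 237 and 591 FPKM in eWAT, against 30.7, 68.3 and 143 FPKM in iWAT (log2 difference 1.74 ± 0.30 SE, adjusted p = 0.00116). Retn, resistin, went the other way, at 88.1, 154 and 237 FPKM in eWAT, against 274, 535 and 781 FPKM in iWAT (log2 difference -1.58 ± 0.26 SE, adjusted p = 0.000865). Leptin, Lep (-0.41, adjusted p = 0.173), was not called but was lower with the block (adjusted p = 0.00551), while adiponectin, Adipoq (-0.54, adjusted p = 0.000514), was lower; both were named after their values were seen.

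Transcripts of oxidative metabolism were lower in eWAT by modest amounts on average, with a size that changed from pair to pair. Of 22 fatty acid oxidation genes 12 were lower and 1 higher (1 higher and 16 lower with the block; median -0.53, -0.65 within number 1 and -0.40 within number 2 libraries). Of 24 genes of the respiratory chain and citrate cycle 11 were lower and none higher (0 higher and 21 lower with the block; median -0.39, -0.44 within number 1 and -0.31 within number 2 libraries). None of these was called in all 4 pairs. Their median ran from -0.71 in WT rosiglitazone to -0.10 in K107R vehicle. That of fatty acid oxidation ran from -0.85 in WT rosiglitazone to -0.34 in K107R vehicle. Acadm, the medium-chain acyl-CoA dehydrogenase, lay at 172, 271 and 351 FPKM in eWAT, against 320.2, 477 and 699 FPKM in iWAT (log2 difference -0.83 ± 0.07 SE, adjusted p = 6.3e-06), the one oxidation gene called in all 4 pairs. Cpt1a, the transferase that admits fatty acids to mitochondria, was the higher one (0.68, adjusted p = 0.0499), and lost its call on leaving out any of 11 single libraries (adjusted p up to 0.12). In lipogenesis 7 of 17 genes were lower and 3 higher (4 higher and 9 lower with the block; median -0.24, -0.34 within number 1 and -0.03 within number 2 libraries). Over all genes 18.8% were higher and 12.7% lower. Acacb, the acetyl-CoA carboxylase at mitochondria, lay at 5.99, 10.3 and 22.6 FPKM in eWAT, against 10.7, 23.2 and 42.7 FPKM in iWAT (log2 difference -0.95 ± 0.06 SE, adjusted p = 1.22e-06). Me1, the malic enzyme, lay at 105, 157 and 239 FPKM in eWAT, against 151, 298 and 543 FPKM in iWAT (log2 difference -0.84 ± 0.15 SE, adjusted p = 0.00165). The desaturase Fads1, which makes long polyunsaturated fatty acids, went the other way, at 22.5, 25.4 and 32.1 FPKM in eWAT, against 10.3, 12 and 14.5 FPKM in iWAT (log2 difference 1.04 ± 0.08 SE, adjusted p = 3.68e-06), with no overlap between depots.

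Of 16 brown and beige genes 7 were lower in eWAT and 2 higher (3 higher and 11 lower with the block; median -0.55, -0.89 within number 1 and -0.55 within number 2 libraries). Over all genes 12.7% were lower and 18.8% higher. Cidea, a lipid droplet protein of brown and beige cells (chromosome 18, 67343564 to 67367794), lay at 3.07, 6.31 and 21.1 FPKM in eWAT, against 25.8, 34.2 and 37.9 FPKM in iWAT (log2 difference -1.98 ± 0.09 SE, adjusted p = 6.83e-08). The uncoupling protein Ucp1 (chromosome 8, 83290348 to 83298456) lay at 1.01, 2.48 and 20.2 FPKM in eWAT, against 3.34, 9.81 and 29.4 FPKM in iWAT (log2 difference -1.20 ± 0.22 SE, adjusted p = 0.00185), and its depots overlapped. Neither number alone kept its call (-1.47 within number 1 and -0.94 within number 2 libraries). Ckb, the brain-type creatine kinase of the creatine cycle (chromosome 12, 111669355 to 111672338), was one of the 2 higher genes. It lay at 254, 304 and 396 FPKM in eWAT, against 35.1, 49.6 and 59.9 FPKM in iWAT (log2 difference 2.71 ± 0.14 SE, adjusted p = 1.83e-07), and was called in all 4 pairs.

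**Figure D3:**
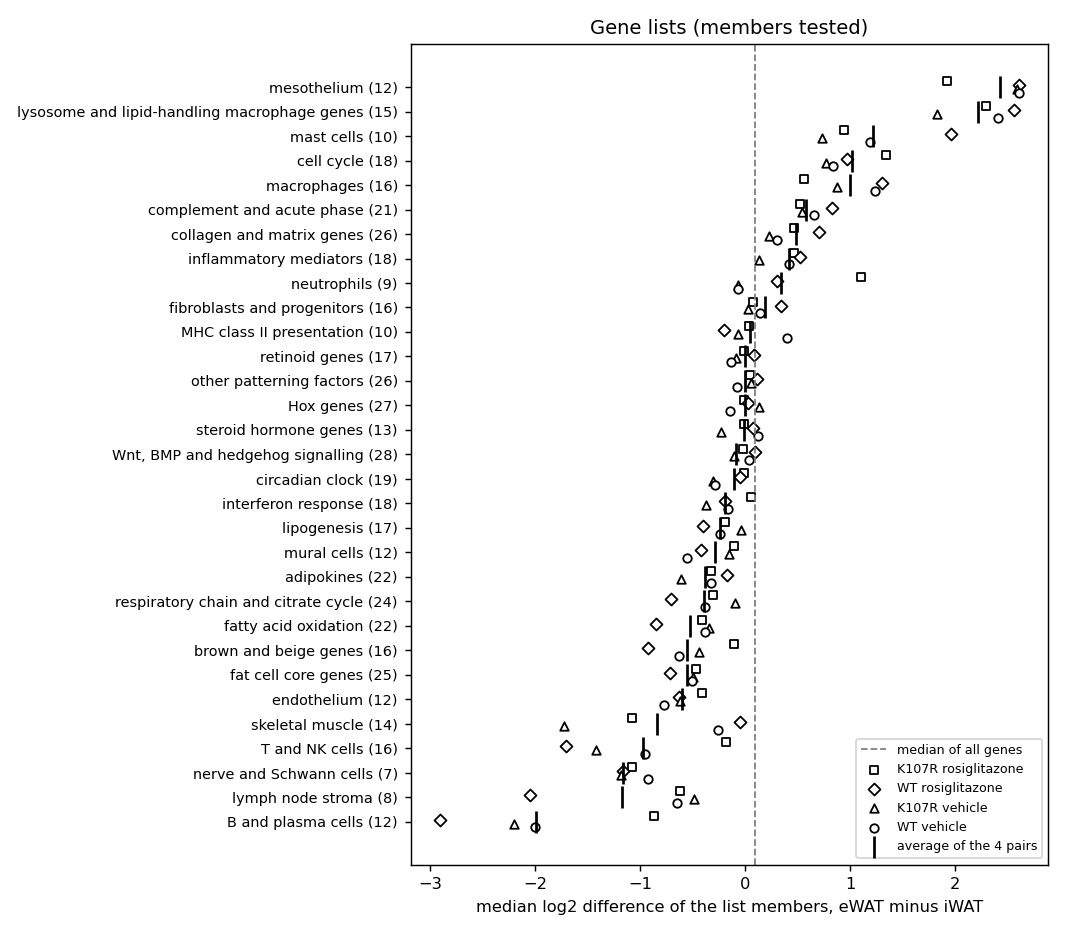
Median log2 difference, eWAT minus iWAT, of the members of each gene list with at least 5 members tested (number in parentheses), with a bar for the average of the 4 pairs and a symbol for each pair. The dashed line is the median of all genes, 0.09; mesothelium, lysosomal macrophage genes, mast cells and cell cycle lie furthest right, and B cells, lymph node stroma, nerve and T cells furthest left.

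Endothelial genes and most nerve genes were lower in eWAT. Of 12 endothelial markers 7 were lower and none higher (0 higher and 12 lower with the block; median -0.61, -0.74 within number 1 and -0.48 within number 2 libraries). Kdr, the main VEGF receptor, lay at 10.3, 22 and 24.2 FPKM in eWAT, against 21.2, 38.9 and 53.2 FPKM in iWAT (log2 difference -0.95 ± 0.14 SE, adjusted p = 0.00038). Egfl7, a secreted protein of endothelium, lay at 38, 52.4 and 78.9 FPKM in eWAT, against 72.5, 123 and 177 FPKM in iWAT (log2 difference -0.97 ± 0.17 SE, adjusted p = 0.00148). The summed level of the list was 269, 295 and 376 FPKM in eWAT, against 398, 490.4 and 729.6 FPKM in iWAT, without overlap. Of 12 mural cell genes 5 were lower and 2 higher (2 higher and 7 lower with the block), beside 12.7% of all genes lower and 18.8% higher. Of 7 nerve and Schwann cell genes 6 were lower and none higher (1 higher and 6 lower with the block; median -1.17, -1.30 within number 1 and -1.03 within number 2 libraries). Prx, periaxin of myelinating Schwann cells, lay at 0.472, 0.514 and 0.759 FPKM in eWAT, against 3.64, 4.59 and 5.4 FPKM in iWAT (log2 difference -1.84 ± 0.07 SE, adjusted p = 3.31e-08). Mbp, a myelin protein also made elsewhere, lay at 9.92, 14.9 and 18.7 FPKM in eWAT, against 23.1, 32.8 and 49.9 FPKM in iWAT (log2 difference -1.17 ± 0.19 SE, adjusted p = 0.000711). Both genes differed without overlap. The summed level of the nerve list overlapped between depots, at 49.6, 146 and 214 FPKM in eWAT, against 70.3, 147 and 223 FPKM in iWAT, and its member with the highest level, Pmp22, is a myelin protein that other cells make as well, named after its values were seen. Pmp22 lay at 37.1, 128 and 193 FPKM in eWAT, against 20.9, 71.3 and 135 FPKM in iWAT and was not called (0.95, adjusted p = 0.278; 0.00342 with the block).

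Retinoid genes fell on both sides, 4 of 17 higher and 6 lower (5 higher and 8 lower with the block; median 0.00). The shares over all genes were 18.8% higher and 12.7% lower. Aldh1a2, which makes retinoic acid and is known from mesothelium, lay at 4.54, 8.67 and 12.1 FPKM in eWAT, against 1.45, 2.01 and 3.11 FPKM in iWAT (log2 difference 1.58 ± 0.12 SE, adjusted p = 3.86e-06). Cyp26b1, which breaks retinoic acid down, lay at 0.4, 0.646 and 0.947 FPKM in eWAT, against 1.25, 2 and 3.12 FPKM in iWAT (log2 difference -0.86 ± 0.15 SE, adjusted p = 0.00139). Rxrg, a partner receptor of PPARg, lay at 4.73, 5.18 and 7.95 FPKM in eWAT, against 8.04, 10.3 and 15.2 FPKM in iWAT (log2 difference -0.85 ± 0.06 SE, adjusted p = 3.47e-06). The synthesis enzyme thus lay higher in eWAT, and the breakdown enzyme lower.

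Lymphocyte genes were lower in eWAT, with a size that changed from pair to pair. Of 12 B and plasma cell genes 11 were lower and none higher (1 higher and 11 lower with the block; median -1.995, -2.20 within number 1 and -1.86 within number 2 libraries). Cd79a, a signalling chain of the B cell receptor (chromosome 7, 24897497 to 24901858), lay at 1.94, 2.79 and 7.43 FPKM in eWAT, against 7.58, 41.7 and 104 FPKM in iWAT (log2 difference -3.08 ± 0.21 SE, adjusted p = 1.71e-06). Fcer2a, the low-affinity IgE receptor, lay at 0.178, 0.352 and 1.09 FPKM in eWAT, against 2.59, 14.2 and 31.9 FPKM in iWAT (log2 difference -3.11 ± 0.17 SE, adjusted p = 2.74e-07). In these genes the lowest iWAT library still exceeded the highest eWAT library. Fcmr, the receptor for IgM, lay at 0.343, 1.13 and 2.65 FPKM in eWAT, against 3.77, 21.1 and 51.1 FPKM in iWAT (log2 difference -3.11 ± 0.15 SE, adjusted p = 1.19e-07). Ltb, lymphotoxin beta, which organises lymphoid tissue, lay at 2.35, 3.21 and 5.74 FPKM in eWAT, against 8.57, 36.2 and 73.3 FPKM in iWAT (log2 difference -2.82 ± 0.07 SE, adjusted p = 1.59e-09). Ly6d, a surface protein of B cells, lay at 2.41, 4.02 and 9.25 FPKM in eWAT, against 9.58, 59.7 and 154 FPKM in iWAT (log2 difference -3.19 ± 0.18 SE, adjusted p = 4.38e-07). Jchain (0.47), the joining chain of plasma cell antibodies, named after its value was seen, was not called (adjusted p = 0.299) but was higher with the block (adjusted p = 0.0181).

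Of 16 T and NK cell genes 11 were lower and 1 was higher (2 higher and 14 lower with the block; median -0.97, -1.66 within number 1 and -1.38 within number 2 libraries). Cd4, the co-receptor of helper T cells, lay at 0.378, 0.732 and 1.52 FPKM in eWAT, against 1.9, 7.59 and 13.6 FPKM in iWAT (log2 difference -2.05 ± 0.06 SE, adjusted p = 5.81e-09). Il7r, the receptor for interleukin 7, named after its values were seen, went the other way (1.81, adjusted p = 0.000367). Of 8 lymph node stroma genes 5 were lower and 1 was higher (2 higher and 5 lower with the block). Glycam1, a mucin-like protein of lymph node venules (chromosome 15, 103562759 to 103565081), lay at 0, 0 and 1.26 FPKM in eWAT, against 4.03, 17.7 and 70.5 FPKM in iWAT and is listed at 0 in 5 of the 8 eWAT libraries. The venule addressin Madcam1 (-0.78), named after its value was seen, the chemokines Ccl19 (-1.57), Cxcl13 (-1.74) and Ccl21a (-2.28, not called within number 1 libraries, at -1.45) were lower too, and Ccl21a may share reads with near-identical copies. Between number 1 libraries Ccl21a was higher in eWAT in K107R rosiglitazone (0.684) and in K107R vehicle (0.631). It was lower in all other matched differences. Of 10 MHC class II genes 2 were higher and 3 lower (4 higher and 3 lower with the block), beside 18.8% and 12.7% of all genes. H2-Oa (-2.57) and H2-Ob (-2.14), the regulators known from B cells, were lower, the protease Ctss (2.54) was higher, and Cd74 (0.04), the invariant chain, named after its value was seen, was not called. Pla2g2d, a phospholipase of dendritic cells in lymphoid tissue, lay at 0.631, 0.987 and 3.23 FPKM in eWAT, against 4.67, 10.8 and 17.3 FPKM in iWAT (log2 difference -2.29 ± 0.15 SE, adjusted p = 1.04e-06). Of 18 interferon response genes 6 were lower, by up to 0.70 on the log2 scale in Usp18, which limits interferon signalling, and Oas1a (0.95) was higher (2 higher and 9 lower with the block).

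The summed B cell level was 13.8, 24.3 and 68 FPKM in eWAT, against 38.7, 176 and 389.8 FPKM in iWAT, and that of T and NK cells 28.8, 51.9 and 73.4 FPKM in eWAT, against 26, 102 and 196 FPKM in iWAT. Within iWAT the B cell sum was 50.5 and 38.7 FPKM in K107R rosiglitazone, 389.8 and 321 in WT rosiglitazone, 160.2 and 115 in K107R vehicle and 265 and 192 in WT vehicle, while no eWAT library exceeded 68 FPKM. The lymph node markers moved with the lymphocyte genes: Glycam1 was likewise lowest in the K107R rosiglitazone iWAT libraries and highest in those of WT rosiglitazone. Whether a lymph node was taken with each pad is not given in the sources used here, and its part in these differences was not tested.

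**Figure D4:**
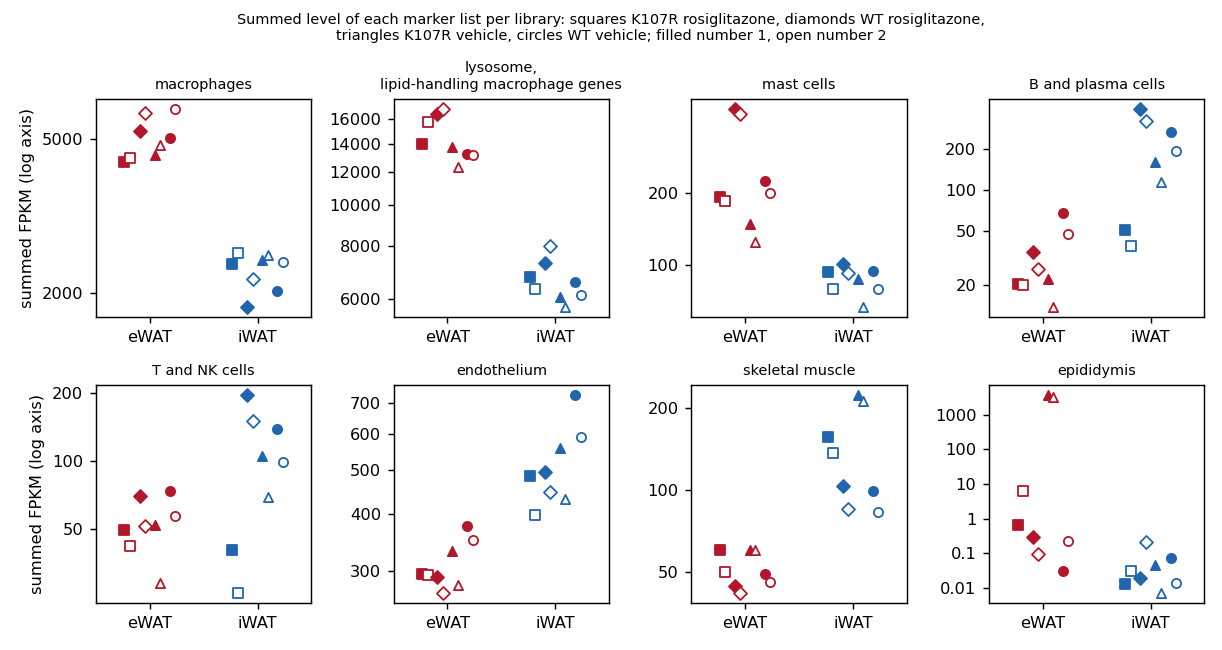
Summed FPKM of 8 lists in each library, on log axes, with eWAT in red at the left and iWAT in blue at the right of each panel; shapes give genotype and treatment, filled symbols number 1 and open symbols number 2. Macrophage, lysosomal and mast cell sums lie higher in eWAT, B cell, endothelial and muscle sums lower in eWAT apart from 2 iWAT libraries of the B cell panel that lie among the eWAT values, and the epididymis sum is high in the 2 eWAT K107R vehicle libraries.

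Skeletal muscle genes were lower in eWAT in 11 of 14 cases and higher in 1 (1 higher and 12 lower with the block; median -0.84, -0.93 within number 1 and -0.89 within number 2 libraries), and within either number alone in 5 of 12. Among the 14 genes, 5 stayed under 1 FPKM in every eWAT library and could pass the filter only through iWAT. The count of lower muscle genes and the median were thus partly set by the filter. Myl1, a myosin light chain, lay at 22.7, 29.8 and 49.4 FPKM in eWAT, against 48.7, 73.8 and 117 FPKM in iWAT (log2 difference -1.21 ± 0.15 SE, adjusted p = 0.00013), and was called in every pair. The summed level was 42, 49.8 and 60.5 FPKM in eWAT, against 82.8, 120.1 and 222 FPKM in iWAT, and reached 222 and 212 FPKM in the iWAT K107R vehicle libraries and 156 and 137 in those of K107R rosiglitazone. Ckm, the creatine kinase of muscle fibres, lay at 1.54 and 1.11 FPKM in eWAT, against 12.1 and 9.03 FPKM in iWAT in K107R vehicle and at 0.0911 and 0.0216 FPKM in eWAT, against 3.62 and 3.3 FPKM in iWAT in K107R rosiglitazone. In the WT pairs Ckm stayed under 0.3 FPKM in every library. The fast myosin Myh1 had its largest difference in K107R vehicle (-2.26), against -0.60 in K107R rosiglitazone, -0.24 in WT rosiglitazone and -0.37 in WT vehicle. It reached 1 FPKM in the iWAT K107R vehicle libraries alone and passed the filter only through them.

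The depot difference itself was tested for equality among the 4 pairs. It differed for 321 genes (2.38% of 13472; 817 with the replicate block), of which 260 were also called in the average. In 39 of the 321 genes (0.289% of all genes) the depots differed in opposite directions in 2 pairs, each past its test. The difference was larger with rosiglitazone than with vehicle, in the direction of eWAT, for 36 genes (0.267%) and the reverse held for 81 (0.601%), whereas K107R exceeded WT for 237 genes (1.76%) and the reverse held for 44 (0.327%). The K107R side of the last comparison includes the eWAT libraries that hold the epididymal transcripts, and their part in its counts was not tested. Without the 4 K107R vehicle libraries 119 genes differed among the remaining pairs. Leaving out number 1 of eWAT K107R rosiglitazone, or either eWAT K107R vehicle library, also lowered the count by over 1.5 times, to as few as 163.

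Some genes higher in eWAT in every pair differed in size. Spp1 lay at 309 and 308 FPKM in eWAT, against 6.06 and 5.91 FPKM in iWAT in WT rosiglitazone (5.47). It lay at 214 and 215 FPKM in eWAT, against 8.74 and 7.26 FPKM in iWAT in K107R rosiglitazone (4.59). In K107R vehicle it lay at 122 and 117 FPKM in eWAT, against 7.96 and 6.88 FPKM in iWAT (3.85). In WT vehicle it lay at 86 and 88.1 FPKM in eWAT, against 6.25 and 6.08 FPKM in iWAT (3.62). The iWAT level was thus low in all groups, and the eWAT level set the order (F test adjusted p = 0.000202). The tryptase Tpsab1 lay at 39.5 and 36.8 FPKM in eWAT, against 3.25 and 2.49 FPKM in iWAT in WT rosiglitazone (3.34). In K107R rosiglitazone it lay at 2.36 and 2.49 FPKM in eWAT, against 0.712 and 0.549 FPKM in iWAT (1.07; F test adjusted p = 0.00144). For Agt, the highest eWAT levels were in the K107R vehicle libraries that hold the epididymal transcripts, whose part was not tested. Agt lay at 40.6 and 38.9 FPKM in eWAT, against 1.76 and 2.33 FPKM in iWAT in K107R vehicle (3.75). In WT rosiglitazone it lay at 22.9 and 22.6 FPKM in eWAT, against 5.03 and 5.43 FPKM in iWAT (1.93; F test adjusted p = 0.0015).

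Brown fat genes were nearest to equal between depots in K107R rosiglitazone. Ucp1 lay there at 19 and 20.2 FPKM in eWAT, against 12.4 and 7.25 FPKM in iWAT (0.97, adjusted p = 0.264; 0.0152 with the block), the only pair in which eWAT was above iWAT. In WT rosiglitazone it lay at 3.46 and 2.54 FPKM in eWAT, against 29.4 and 16.3 FPKM in iWAT (-2.53, adjusted p = 0.00321; F test adjusted p = 0.0332). Cox8b, a cytochrome oxidase subunit of brown fat and muscle, lay at 81.3 and 91.8 FPKM in eWAT, against 88.9 and 106 FPKM in iWAT in K107R rosiglitazone (-0.17). In WT rosiglitazone it lay at 36.3 and 39.9 FPKM in eWAT, against 157 and 216 FPKM in iWAT (-2.24; F test adjusted p = 0.00212). Cidea lay at 21.1 and 19.4 FPKM in eWAT, against 35.2 and 34.4 FPKM in iWAT in K107R rosiglitazone (-0.76). In WT rosiglitazone it lay at 4.98 and 6.3 FPKM in eWAT, against 34 and 37.9 FPKM in iWAT (-2.48; F test adjusted p = 0.00372), so its iWAT levels were close and its eWAT levels set the difference apart.

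The lymphocyte genes Cd4 and Cd79b also differed less between depots in K107R rosiglitazone than in WT rosiglitazone. Cd4 lay at 0.795 and 0.674 FPKM in eWAT, against 1.9 and 2.07 FPKM in iWAT in K107R rosiglitazone (-0.78). In WT rosiglitazone it lay at 0.73 and 0.734 FPKM in eWAT, against 12.9 and 13.6 FPKM in iWAT (-3.04; F test adjusted p = 7.91e-05). Cd79b, the partner chain of Cd79a, lay at 2.55 and 2.55 FPKM in eWAT, against 8.78 and 11 FPKM in iWAT in K107R rosiglitazone (-1.61). In WT rosiglitazone it lay at 3.93 and 4.75 FPKM in eWAT, against 76.1 and 104 FPKM in iWAT (-4.08; F test adjusted p = 0.00146). Here the iWAT libraries differed among groups more than the eWAT libraries did.

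In a further set of genes, chosen for opposite directions in a pair of comparisons, K107R vehicle stood apart. Gldc, the glycine decarboxylase, lay at 17.1 and 14.3 FPKM in eWAT, against 2.36 and 1.72 FPKM in iWAT in K107R vehicle (2.46). In WT vehicle it lay at 1.25 and 0.986 FPKM in eWAT, against 3.68 and 3.08 FPKM in iWAT (-1.05; F test adjusted p = 1.04e-05). The growth factor Egf, the membrane protease inhibitor Spint1, the sialyltransferase St8sia5 and the steroid sulfotransferase Sult2b1 had pair differences of 1.16, 1.28, 1.82 and 1.60 in K107R vehicle and of -0.15, -0.45, -0.09 and -0.33 in WT vehicle. Egf, Spint1 and Sult2b1 passed the filter on low values only through the eWAT K107R vehicle libraries, so they had to stand apart there, and their values are a description. Epididymal transcripts were at 3368 FPKM or more in the same eWAT K107R vehicle libraries, and their part in this pattern was not tested. Ltf, lactoferrin, lay at 5 and 4.22 FPKM in eWAT, against 0.106 and 0.0708 FPKM in iWAT in K107R vehicle (2.36). In WT vehicle it lay at 0.31 and 0.322 FPKM in eWAT, against 0.0323 and 0.0906 FPKM in iWAT (0.31), and it too passed the filter only through eWAT K107R vehicle. The hair follicle keratins Krt71 and Krt27 were listed at 0 in every library except the 2 of iWAT K107R vehicle, where Krt71 was at 3.5 and 3.56 FPKM, and they passed the filter through these libraries alone.

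**Figure D5:**
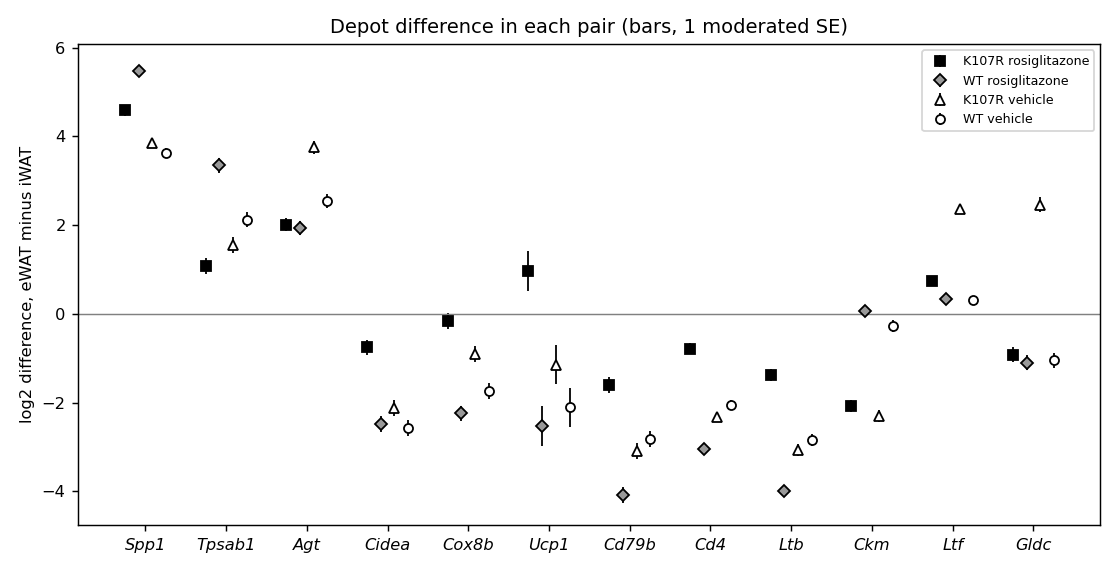
Log2 difference, eWAT minus iWAT, of 12 genes in each of the 4 pairs of groups (2 libraries against 2), with bars of 1 moderated SE. Spp1, Tpsab1 and Agt lie above 0 in every pair, Ucp1 is above 0 in K107R rosiglitazone alone, Gldc in K107R vehicle alone, and Ckm is near 0 in both WT pairs.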

How the data were processed

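RNA from epididymal and inguinal fat was sequenced from 4 ug of total RNA per library with a stranded mRNA kit, as 75 nt single-end reads, per the labels' protocols. The submitters' processing notes name CASAVA 1.8.2, TopHat2 2.0.12, Cufflinks 2.2.1 and mm10, and the authors deposited FPKM per gene, 14023 genes in 16 libraries. FPKM carry no read counts, so depth and counting error are unknown. Whether a scaling between libraries was applied is not given in the sources used here.

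The test covered the 13669 genes that reached 1 FPKM in 2 or more libraries. Their log2(FPKM + 1) were fitted with limma 3.58.1 in R 4.3.3: means of 8 groups, a mean-variance trend, two-sided tests, and Benjamini-Hochberg adjustment over all tested genes. Contrasts were the average of the 4 depot differences, each pair, and an F test with 3 degrees of freedom for equality among them. The 193 genes left out had at least 1 FPKM in both eWAT K107R vehicle libraries, the lower of which was at least 4 times the highest of the other 14 libraries. The fit was tested on simulated data. A gene under 1 FPKM in every library of 1 depot could pass the filter only through the other depot, which partly sets its call. Besides the genes marked, this holds for genes such as Prx, Wnt10b, Cyp26b1, Col6a5 and Npas2. Under 1 FPKM in every eWAT library were 4 of 8 nerve, 2 of 12 B cell and 3 of 17 T and NK cell genes with values.

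Replicate numbers come from the labels. Libraries of the same number deviated together in all 28 pairs of groups (correlation 0.121 to 0.79), so results with the number as a block are given where they change a call or move a count by over 1.5 times.

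Named genes were up to 12 per direction with the largest difference, among those called, of 1 sign in all pairs, without overlap and with a mean of at least 2 FPKM in the higher depot. From each of 34 lists up to 4 called members were named, every called patterning gene, and genes differing most among pairs. Genes named outside this rule are marked, and a few genes that it names are not reported here. The members and lists were chosen with earlier results of these data known. Coordinates and promoters are from RefSeq GRCm38.p6, matched by symbol for 13382 genes. Alternatives were another pseudocount (0.1), no filter, median-ratio rescaling, library weights, the block, single numbers, and leaving out libraries or gene sets.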

Additional observations from a re-analysis of the deposited data

Results flagged for a closer look

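The depot difference, eWAT minus iWAT, differed among the 4 pairs of genotype and treatment for 41 of the named genes reported here, by limma's F test with the adjusted p given after each gene. Among myeloid and mast cell genes these were Spp1 (0.000202), Itgax (0.0247), Marco (0.00303), Ltf (1.32e-05), Ngp (9.73e-05), Tpsab1 (0.00144) and Fcer1a (0.0408). Among lymphocyte and lymph node genes they were Cd79b (0.00146), Ltb (8.54e-05), H2-Oa (0.0026), Ciita (0.0277), Ccl5 (0.021), Lck (0.000721), Cd4 (7.91e-05), Cd8b1 (0.00291), Glycam1 (0.00629) and Ccl19 (0.0145). Among fat, brown fat and secreted factor genes they were Cidea (0.00372), Cox8b (0.00212), Ucp1 (0.0332), Agt (0.0015) and Npy (0.03004). Among muscle genes they were Tnnt3 (0.0178), Ckm (3.33e-05), Myh1 (1.88e-06) and Atp2a1 (2.55e-05). Among keratins and epithelial genes they were Krt14 (0.00604), Krt25 (7.13e-08), Krt27 (2.09e-07), Krt71 (3.54e-08) and Wfdc2 (0.043). The remaining ones were Irx1 (0.00367), Susd4 (2.53e-06), Gldc (1.04e-05), St8sia5 (1.32e-05), Spint1 (2.56e-05), Tmc5 (4.43e-05), Egf (4.88e-05), Rnf186 (5.04e-05), Sult2b1 (9.01e-05) and Vipr1 (9.01e-05). Over all 13472 genes, 321 (2.38%) passed the test. Krt25, Susd4, Gldc, St8sia5, Spint1, Tmc5, Egf, Rnf186, Sult2b1 and Vipr1 were named for the smallest F test p among genes with opposite directions. Krt71, Krt27, Myh1 and Atp2a1 were named for large differences among pairs, and Ckm both for that and as a muscle gene. Their passing followed from that choice, so their p-values add no support. Every one of the 41 also passed with the replicate block. Some of them passed the filter on low values only through 1 group in which they were high: Egf, Rnf186, Spint1, Sult2b1, Susd4, Wfdc2 and Ltf through eWAT K107R vehicle, Krt25, Krt27, Krt71 and Myh1 through iWAT K107R vehicle, and Ngp through eWAT K107R rosiglitazone. These genes had to differ among the pairs, so the p-values of these genes support nothing. The groups hold 2 libraries each, so no single library was tested against its group.

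The 193 genes left out of the counts summed to 8958 and 7599 FPKM in the eWAT K107R vehicle libraries, and to between 18.4 and 39.2 FPKM in the other 14 libraries. They lie outside the comparison of depots.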

How the results depend on the processing

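The direction of the average difference was kept by the 160 named genes, under every alternative in which they could be tested (149 of them within number 1, and 147 within number 2 and without the K107R vehicle libraries), other than by Susd4, Spint1, Sult2b1, St8sia5, Tmc5 and Alas2. With the block, 4559 genes were higher in eWAT and 2873 lower, the pair counts were 3609 in K107R rosiglitazone, 4330 in WT rosiglitazone, 3812 in K107R vehicle and 3445 in WT vehicle, 1337 genes were higher and 593 lower in all pairs, and 817 passed the F test. A block within each pair gave 3900 higher. Number 1 libraries alone gave 3175 lower, and number 2 libraries alone 4675 higher and 1126 lower. Median-ratio rescaling gave 2735 lower, and 420 lower in all pairs. Library weights gave 956 in K107R vehicle. The F test called 119 genes without the K107R vehicle libraries and 515 with the left-out genes kept. The cause of these shifts was not tested.

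Leaving out single libraries gave 2135 to 2826 genes higher and 1502 to 1881 lower, 775 to 1553 in K107R rosiglitazone, 1194 to 2160 in WT rosiglitazone, 963 to 1655 in K107R vehicle and 763 to 1571 in WT vehicle, 415 to 631 higher and 117 to 221 lower in all pairs, and 163 to 282 past the F test; a group left with 1 library was assumed to vary like the others. Those that moved a pair count by over 1.5 times belong to that pair. The all-pairs count of higher genes moved as far without number 1 of eWAT K107R vehicle or of eWAT WT vehicle, and that of lower genes without either number of eWAT or iWAT K107R rosiglitazone or of eWAT WT vehicle, or number 2 of eWAT K107R vehicle.

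Signs reversed for Susd4 (-0.13), Spint1 (-0.29) and Sult2b1 (-0.0055) with a pseudocount of 0.1, for St8sia5 (-0.19) and Tmc5 (-0.18) without the K107R vehicle libraries, and for the gene Alas2 after rescaling (-0.11), within number 2 (-0.026) and without each of 6 single libraries; leaving out single libraries gave it between -0.0189 and 0.0692.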

Other observations

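Of the circadian clock list 2 of 19 genes were higher in eWAT and 3 lower (4 higher and 8 lower with the block; median -0.10, -0.27 within number 1 and 0.04 within number 2 libraries). The shares over all genes were 18.8% higher and 12.7% lower. Npas2, a clock activator, lay at 1.14, 2.42 and 3.21 FPKM in eWAT, against 0.181, 0.425 and 0.847 FPKM in iWAT (log2 difference 1.16 ± 0.18 SE, adjusted p = 0.000461), and Cry2, a clock repressor, at 11.8, 12.5 and 14.2 FPKM in eWAT, against 19.5, 22.2 and 24.5 FPKM in iWAT (log2 difference -0.74 ± 0.06 SE, adjusted p = 3.66e-06). The repressor Nr1d1 was lower (-0.65, adjusted p = 0.00484). Bhlhe41, a repressor that the clock also drives, was higher (1.26, adjusted p = 0.0436), and lost its call on leaving out any of 11 single libraries (adjusted p up to 0.102).

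Of the steroid hormone list 3 of 13 genes were higher in eWAT and 3 lower (4 higher and 4 lower with the block; median -0.01, -0.34 within number 1 and 0.21 within number 2 libraries). The shares over all genes were 18.8% higher and 12.7% lower. Star, which carries cholesterol into mitochondria for steroid synthesis, lay at 1.18, 1.79 and 2.1 FPKM in eWAT, against 0.443, 0.718 and 1.12 FPKM in iWAT (log2 difference 0.65 ± 0.10 SE, adjusted p = 0.000421). Hsd11b2, which inactivates glucocorticoids, lay at 0.62, 1.56 and 3.69 FPKM in eWAT, against 0.94, 3.3 and 6.67 FPKM in iWAT (log2 difference -0.59 ± 0.09 SE, adjusted p = 0.000509). The mineralocorticoid receptor Nr3c2 (-0.56, adjusted p = 0.0174) and Hsd11b1, which activates glucocorticoids (-0.82, adjusted p = 0.0293), were lower too. Hsd11b1 lost its call on leaving out any of 9 single libraries (adjusted p up to 0.069), and neither kept it without the K107R vehicle libraries. The oestrogen receptor Esr1 (-0.01), named after its value was seen, was not called.

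Among epithelial genes, Krt14, a keratin of basal epithelium, lay at 0.39, 1.5 and 5.98 FPKM in eWAT, against 0, 0.0284 and 0.338 FPKM in iWAT (log2 difference 1.27 ± 0.08 SE, adjusted p = 6.42e-07). Krt14 reached 1 FPKM in no iWAT library and passed the filter only through eWAT. Its highest levels, 3.88 and 5.98 FPKM, were in the eWAT K107R vehicle libraries. Wfdc2, a secreted protease inhibitor of epithelia, lay at 0.0826, 0.427 and 3.14 FPKM in eWAT, against 0, 0 and 0.0795 FPKM in iWAT. It reached 1 FPKM only in the 2 eWAT K107R vehicle libraries, which hold the epididymal transcripts, and passed the filter only through them, so no test of it is given. Neither of the named erythrocyte genes was called: the globin Hbb-bs had a log2 difference of -1.03 (adjusted p = 0.317) and Alas2 one of 0.03 (adjusted p = 0.89). Hbb-bs was at 0.0223 FPKM in number 1 of eWAT WT vehicle and at 25.8 FPKM or more in every other library. Leaving out number 2 of that group, so that this library stood alone in it, gave a difference of -1.71.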
